A study of Danio rerio with 8 samples.

Results

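The melanocyte lineage genes mitfa, sox10 and kita were followed through 8 zebrafish melanomas. They were taken by Ensembl gene ID (ENSDARG00000003732 for mitfa, ENSDARG00000077467 for sox10 and ENSDARG00000043317 for kita), and all 3 were present among the 22416 IDs of the deposited tables. The tumours overexpressed dgat1a from a mitfa promoter, Tg(mitfa:dgat1a) (n = 5), or egfp from the same promoter, Tg(mitfa:egfp) (n = 3). Every fish of both groups carried the background tp53m214K/m214k, mitfa-/- and nras G12D, and the tumours were age matched and taken at 10 to 12 weeks. The series' design text names miniCoopR, a vector that restores melanocytes in mitfa mutants by supplying a mitfa gene beside the gene of interest. The study asked what dgat1a, an enzyme of triacylglycerol synthesis, changes in such tumours. The labels do not say whether tumours came from separate fish or were pooled, so p-values measure only the spread between these samples.

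In neural crest cells sox10, a SoxE transcription factor, switches on mitfa, and mitfa in turn directs the melanocyte programme, including the enzymes that make melanin. The receptor kita binds the Kit ligand and serves the migration and survival of melanoblasts in zebrafish. Fish without functional mitfa have no melanocytes in the body. In these tumours the mitfa row can hold reads of the mutant chromosomal gene and of the rescue copy on the vector, and the table does not separate them. The promoter that drives egfp and dgat1a is itself the mitfa promoter, so the transgenes are made in the cells that use it.

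Levels are given in fpm, the authors' per-million count of fragments of a gene, scaled for each library, a unit that does not correct for gene length. The columns summed to 907747 to 1053608, so the scaling was not by total reads alone. The libraries held 20936089 to 26865735 reads in listed genes. Egfp replicate 1 stood apart: its mean correlation with the other tumours was 0.854 across genes, against 0.897 to 0.918 for the rest. For a number of genes and lists, though not for all, results are also given without it. Of the 2 IDs paired with the symbol DGAT1, ENSDARG00000103503 measured 3015 ± 724 fpm (SD, n = 5) in dgat1a tumours and 47.1 ± 25.1 fpm (SD, n = 3) in egfp tumours. The transgene labels therefore matched the data in all 8 libraries.

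All 3 lineage genes were abundant in reads, with at least 5450 reads in every library, so counting error was small beside the spread between tumours. The level of mitfa was lower in every dgat1a tumour than in any egfp tumour, that of kita was higher in every dgat1a tumour, and that of sox10 was about equal. None of the 3 differences passed a test adjusted over all genes.

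The master regulator mitfa measured 1565, 685, 733, 1192 and 793 fpm in dgat1a replicates 1 to 5. It measured 1807, 2851 and 1609 fpm in egfp replicates 1 to 3. All dgat1a tumours lay below all egfp tumours, but the gap was narrow: the highest dgat1a tumour, replicate 1, had 1565 fpm and the lowest egfp tumour, replicate 3, had 1609 fpm. Dgat1a replicates 2, 3 and 5 formed a low trio, and replicates 1 and 4 lay between them and the egfp tumours. The means were 993 ± 377 fpm (SD, n = 5) in dgat1a tumours and 2089 ± 667 fpm (SD, n = 3) in egfp tumours. On the log2(fpm + 0.5) scale the difference was -1.10 (standard error 0.32), a 0.466-fold level with a 95% confidence interval of 0.281 to 0.771. Its limma p was 0.00734 unadjusted and 0.216 after Benjamini-Hochberg adjustment over 16853 tested genes. In the exact permutation test, 2 of the 56 splits of the tumours into 5 and 3, the real one included, gave a difference as large (two-sided, unadjusted p = 0.0357). Fewer cells with mitfa RNA and less mitfa RNA per cell cannot be told apart in bulk tumours, which holds for each gene here.

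The upstream factor sox10 measured 1095, 992, 974, 899 and 776 fpm in dgat1a replicates 1 to 5. It measured 1116, 1087 and 667 fpm in egfp replicates 1 to 3. The groups overlapped, and egfp replicate 3 was the lowest tumour of all. The means were 947 ± 118 fpm (SD, n = 5) in dgat1a tumours and 957 ± 251 fpm (SD, n = 3) in egfp tumours. The log2 difference was 0.01 (standard error 0.22), with a 95% confidence interval of -0.49 to 0.52 and a limma adjusted p of 0.983. This interval holds differences of up to 0.711-fold and 1.43-fold, so equality of the groups was not shown beyond that range. Its exact permutation p was 0.929 (two-sided). Among the 3 genes sox10 varied least, 1.67-fold between its lowest and highest tumour, against 4.16-fold for mitfa and 4.73-fold for kita.

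The receptor gene kita measured 731, 860, 569, 518 and 996 fpm in dgat1a replicates 1 to 5. It measured 455, 499 and 210 fpm in egfp replicates 1 to 3. Every dgat1a tumour exceeded every egfp tumour, again by a narrow gap: dgat1a replicate 4 had 518 fpm and egfp replicate 2 had 499 fpm. The means were 735 ± 199 fpm (SD, n = 5) in dgat1a tumours and 388 ± 155 fpm (SD, n = 3) in egfp tumours. The log2 difference was 0.97 (standard error 0.33), a 1.97-fold level with a 95% confidence interval of 1.17 to 3.29. Its limma p was 0.0158 unadjusted and 0.246 adjusted, and the exact permutation p was 0.0357 (two-sided, unadjusted, 2 of 56 splits as large). Egfp replicate 3 carried a good part of the difference: without that tumour the log2 fold change was 0.58 (limma adjusted p = 0.384).

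**Figure D1:**
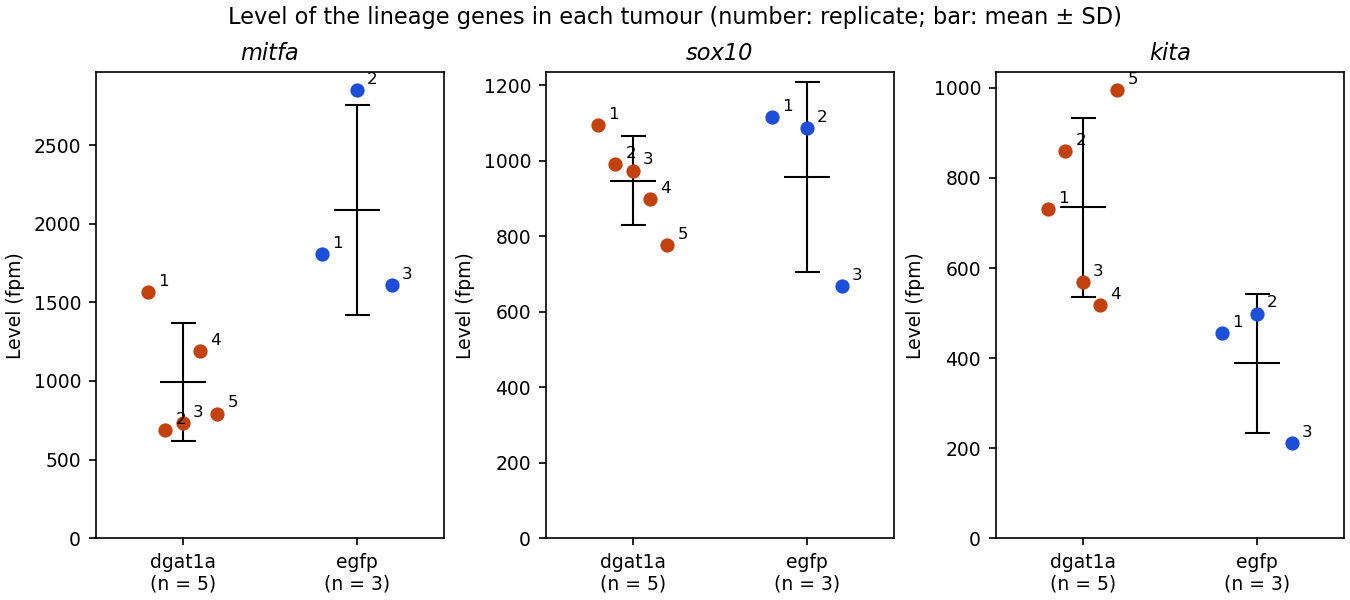
Level in fpm (vertical axes, from 0) of mitfa, sox10 and kita in each dgat1a tumour (left, n = 5) and egfp tumour (right, n = 3). Points carry the replicate number, and black bars show the mean ± SD. All dgat1a points lie below the egfp points for mitfa (highest 1565 against lowest 1609 fpm) and above them for kita (lowest 518 against highest 499 fpm), while the sox10 groups overlap.

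These differences were read against those of all genes. With limma 0 of the 3 genes passed the adjusted threshold of 0.05, which 0.0534% of all tested genes passed. On the recovered reads edgeR called 0 of the 3, against 0.0178% of all genes, and DESeq2 called 0 of the 3, against 5.14% of all genes. At an unadjusted limma p under 0.05 stood 2 of the 3, mitfa and kita, against 15.0% of all tested genes. Groups did not overlap for 2 of the 3, against 10.4% of tested genes, which divides into 4.46% of tested genes with dgat1a higher, as for kita, and 5.95% with dgat1a lower, as for mitfa. By limma p-value mitfa ranked 571st and kita 1082nd of the 16853 genes, so both stood within the first 6.42%. Over all tested genes the log2 fold changes had a median of 0.04. The authors' deposited table called 0 of the 3 either, against 4.34% of its genes. For mitfa the authors' deposited table gives -0.98 on the log2 scale (standard error 0.35, adjusted p = 0.0779). For kita and sox10 the authors' deposited table gives 0.85 (standard error 0.35, adjusted p = 0.14) and -0.01 (standard error 0.25, adjusted p = 0.985).

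Spread within the groups also differed between the genes. The SD of log2(fpm + 0.5) was 0.51 among dgat1a tumours and 0.44 among egfp tumours for mitfa. It was 0.39 among dgat1a tumours and 0.68 among egfp tumours for kita, and 0.19 among dgat1a tumours and 0.42 among egfp tumours for sox10. The median tested gene had an SD of 0.41 among dgat1a tumours and 0.44 among egfp tumours, so only sox10 in dgat1a tumours lay well below the common spread of a gene.

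Because sox10 marks the lineage without differing detectably between the groups, mitfa and kita were also expressed relative to sox10 in the same tumour. Gene length cancels when such a ratio is compared between tumours. The fpm of mitfa divided by that of sox10 was 1.43, 0.691, 0.753, 1.33 and 1.02 in dgat1a replicates 1 to 5. It was 1.62, 2.62 and 2.41 in egfp replicates 1 to 3. The groups did not overlap, with means of 1.04 ± 0.331 (SD, n = 5) in dgat1a tumours and 2.22 ± 0.529 (SD, n = 3) in egfp tumours. The difference of the log2 ratios was -1.12 (exact permutation test over 56 splits, two-sided p = 0.0357, and 0.0357 after adjustment over both ratios).

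The kita to sox10 ratio was 0.668, 0.867, 0.584, 0.576 and 1.28 in dgat1a replicates 1 to 5. It was 0.407, 0.459 and 0.315 in egfp replicates 1 to 3. Here too the groups did not overlap, with means of 0.796 ± 0.296 (SD, n = 5) in dgat1a tumours and 0.394 ± 0.0728 (SD, n = 3) in egfp tumours. The difference of the log2 ratios was 0.96 (exact permutation test, two-sided p = 0.0357, and 0.0357 after adjustment over both ratios). The nearest tumours were dgat1a replicate 4 at 0.576 and egfp replicate 2 at 0.459, the same pair as for kita alone. The 2 ratios rest on the same sox10 values and are not independent of the single-gene differences, which had the same exact permutation p of 0.0357. The adjustment covered only these 2 ratios, and mitfa and kita themselves did not pass the test adjusted over all genes. Groups did not overlap for 10.4% of single tested genes, and no such share was computed for ratios. Direct division of kita by mitfa gave 0.467, 1.26, 0.776, 0.435 and 1.26 in dgat1a replicates 1 to 5, against 0.252, 0.175 and 0.131 in egfp replicates 1 to 3.

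**Figure D2:**
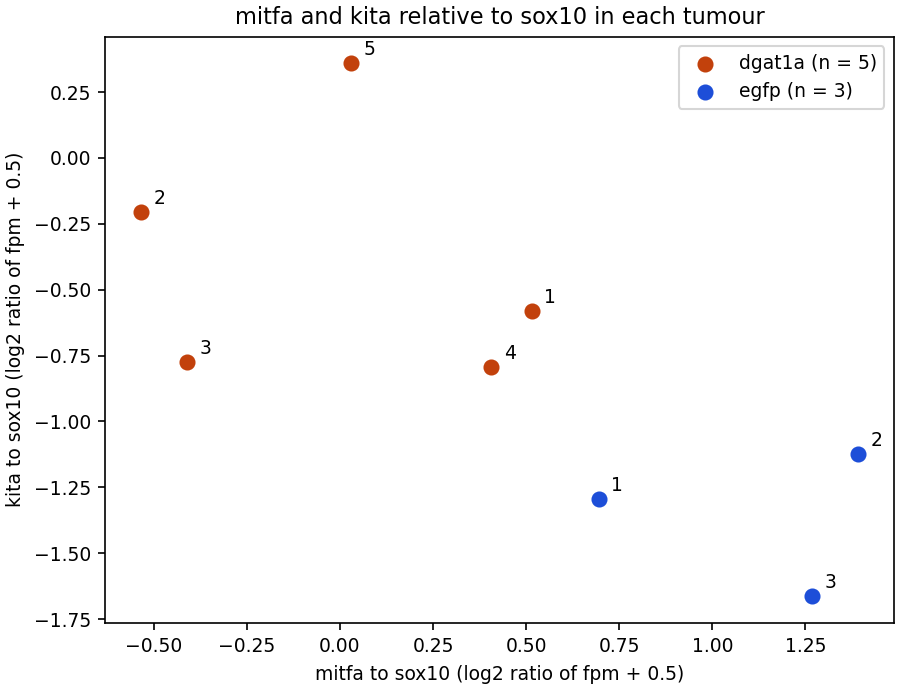
Log2 ratio of mitfa to sox10 (horizontal) and of kita to sox10 (vertical) in each tumour, with dgat1a (n = 5) and egfp (n = 3) in separate colours and the replicate numbers beside the points. The dgat1a tumours lie to the upper left and the egfp tumours to the lower right, with log2 differences of -1.12 and 0.96 between the group means.

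Whether the genes moved together from tumour to tumour was examined for the 3 pairs over all 8 tumours. Pearson's r between mitfa and sox10 was 0.262 (exact permutation p = 0.527, adjusted 0.527 over 3 pairs) and Spearman's rho was 0.333 (exact permutation p = 0.428, adjusted 0.642). Without the 2 tumours farthest from the median of mitfa, dgat1a replicate 2 and egfp replicate 2, r was 0.193. With all 8 tumours and the group means removed, it was 0.46. The factor and its regulator thus showed no relation that the 8 tumours could resolve.

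Between mitfa and kita, r was -0.522 (exact permutation p = 0.182, adjusted 0.511) and rho was -0.738 (exact permutation p = 0.0458, adjusted 0.138). The same 2 tumours left out gave an r of -0.538. With the group means removed, r was 0.12. Between sox10 and kita, r was 0.391 (exact permutation p = 0.341, adjusted 0.511) and rho was -0.0476 (exact permutation p = 0.935, adjusted 0.935). Without dgat1a replicate 5 and egfp replicate 3, the tumours farthest from the median of sox10, r was -0.112, and without egfp replicate 3 alone it was -0.58. The positive value therefore rested on egfp replicate 3, the lowest tumour for both genes. With all 8 tumours and the group means removed, r between sox10 and kita was 0.54. The groups of 5 and 3 are too small for a correlation within each.

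**Figure D3:**
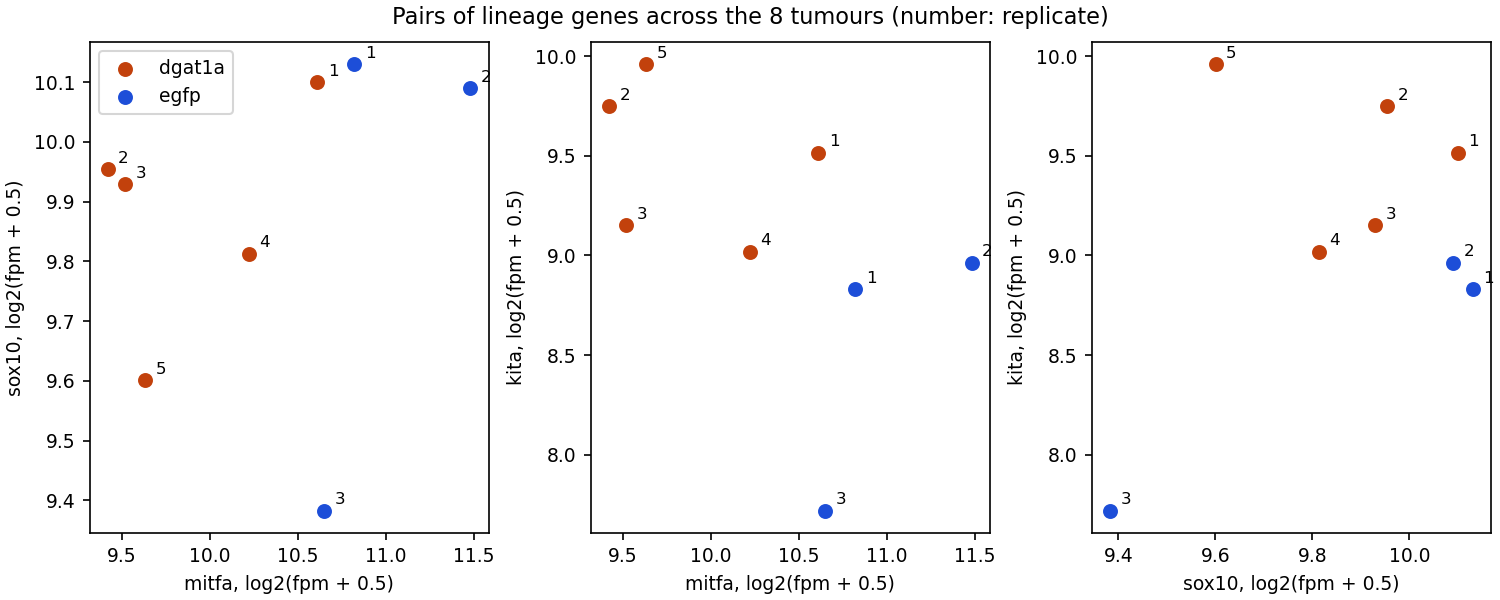
Log2(fpm + 0.5) of mitfa against sox10 (left), mitfa against kita (middle) and sox10 against kita (right) in the 8 tumours, coloured by group and numbered by replicate. The groups separate along mitfa and along kita, and egfp replicate 3 lies low for both sox10 and kita.

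The genes with the pattern most like each lineage gene were found by Pearson's r of log2(fpm + 0.5) over the 8 tumours, as a description with no test. For mitfa the 5 closest symbols were bbs12 (r = 0.984), rhebl1 (0.981), PNKD (0.973), mical3b (0.971) and SRGAP3 (0.970). Among these rhebl1 had 33.2 to 53.7 fpm in dgat1a tumours, against 61.8 to 84.0 fpm in egfp tumours. The gene mical3b had 13.0 to 73.3 fpm in dgat1a tumours, against 76.5 to 195.6 fpm in egfp tumours, with the same 2 dgat1a tumours, replicates 1 and 4, nearest to the egfp group as for mitfa. These 5 genes were chosen for their r among 16172 genes, so its size is fixed by the choice.

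For sox10 the closest symbols were crema (r = 0.979), STAG2 (0.966), VAMP7 (0.938), phlpp2 (0.935) and abhd17c (0.929). STAG2, which encodes a subunit of the cohesin complex, had 242 to 289 fpm in dgat1a tumours, against 204 to 323 fpm in egfp tumours. For kita they were HADHB (0.964), ETNK1 (0.954), FAM222B (0.953), appl2 (0.951) and socs9 (0.950). HADHB, which encodes a subunit of the mitochondrial trifunctional protein of fatty acid oxidation, had 99.3 to 135 fpm in dgat1a tumours, against 78.2 to 107 fpm in egfp tumours. None of these 15 genes passed the limma threshold, which 0.0534% of all tested genes passed, their adjusted p-values being 0.229 or more. All 15 were chosen for following a lineage gene over the same tumours, so their group differences are no separate evidence.

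Other genes of the lineage were described by lists. Symbols are printed as the name table gives them, often in the spelling of the human gene, and where 2 zebrafish copies share a symbol the ID is added. Across all 16 lists, 128 of 147 IDs had a mean of at least 1 fpm and were tested, and limma called 0 of them, against 0.0534% of all genes.

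Relatives of mitfa in the MITF/TFE family of bHLH leucine zipper factors did not share a direction over all 8 tumours. The other ID named MITF, ENSDARG00000037833, had 1.72 to 5.17 fpm in dgat1a tumours, against 2.03 to 6.70 fpm in egfp tumours. TFEB, a regulator of lysosomal genes, had 33.1 to 43.4 fpm in dgat1a tumours, against 18.6 to 33.9 fpm in egfp tumours (log2 fold change 0.70, standard error 0.23, limma adjusted p = 0.242). TFEC, which works in iridophore development in zebrafish, ranged widely in both groups, 19.5 to 196 fpm in dgat1a tumours and 34.3 to 151 fpm in egfp tumours. The 5 tested relatives had a median log2 fold change of 0.27, with 3 above 0 and 2 below. Without egfp replicate 1 all 5 lay above 0, the second MITF ID at 0.26 and TFEC at 0.36.

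Regulators that act with or ahead of sox10 and mitfa in the neural crest showed no common direction. Of 14 log2 fold changes 7 lay above 0, with a median of -0.01. At an unadjusted limma p under 0.05 stood 0 of the 14, against 15.0% of all tested genes. TFAP2A, an AP-2 factor needed for melanophore development, had 695 to 1140 fpm in dgat1a tumours, against 649 to 1729 fpm in egfp tumours (log2 fold change -0.19, standard error 0.32, or 0.17 without egfp replicate 1). HDAC1, a histone deacetylase that in zebrafish permits mitfa expression by restraining foxd3, had 355 to 472 fpm in dgat1a tumours, against 314 to 408 fpm in egfp tumours. FOXD3 itself had 81.9 to 258 fpm in dgat1a tumours, against 44.8 to 297 fpm in egfp tumours (log2 fold change 0.42, standard error 0.59, or -0.16 without egfp replicate 1). A link of either gene to the mitfa difference was not tested. The PAX3 copy ENSDARG00000010192 had 126 to 219 fpm in dgat1a tumours, against 160 to 244 fpm in egfp tumours. It was singled out after its values were seen, as a factor that acts with Sox10 on Mitf in mammals. The other PAX3 copy, ENSDARG00000028348, had 0.0417 to 1.93 fpm in dgat1a tumours, against 0.154 to 28.1 fpm in egfp tumours. It was the 1 of the 14 that DESeq2 called, against 5.14% of all genes (DESeq2 adjusted p = 0.0217, limma adjusted p = 0.344). Its highest value was in egfp replicate 1, and its limma log2 fold change was -2.26 with that tumour and -0.99 without it. Without egfp replicate 1, 5 of the 14 lay above 0 and the median was -0.21.

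Listed ligands and receptors of pigment cells mostly had log2 fold changes on the same side of 0 as kita. This count takes no account of what each gene does or in which pigment cell it acts. Of 11 tested, 10 had a log2 fold change above 0, against 53.6% of all tested genes, with a median of 0.98. At an unadjusted limma p under 0.05, 4 were higher and 1 lower, against 6.83% and 8.18% of all genes. Several of the 10 had low levels: EDNRB (ENSDARG00000053498), asip2b, NRG1, NRG2 (ENSDARG00000077818) and alkal1 had means of 1.11 to 2.13 fpm. Of these alkal1 had 13.7 fpm in dgat1a replicate 3 and at most 0.667 fpm in every other tumour. The Kit ligand gene kitlga had 141, 135, 78.7, 69.0 and 144 fpm in dgat1a replicates 1 to 5, against 122, 32.7 and 31.3 fpm in egfp replicates 1 to 3. Ligand and receptor were thus both high in dgat1a replicates 1, 2 and 5, but egfp replicate 1 had a ligand level within the dgat1a range. On the log2 scale kitlga differed by 1.105 (standard error 0.47, limma adjusted p = 0.318), and by 1.74 without egfp replicate 1. MC1R, the melanocortin receptor, had 77.2, 63.9, 129, 89.7 and 92.6 fpm in dgat1a replicates 1 to 5, against 50.6, 40.4 and 48.8 fpm in egfp replicates 1 to 3. The groups did not overlap for 3 of the 11, MC1R, asip2b and NRG1. All were higher in dgat1a tumours, against 4.46% of all tested genes. For MC1R the log2 fold change was 0.92 (standard error 0.24, limma adjusted p = 0.201). DESeq2 called 1 of the 11, MC1R (DESeq2 adjusted p = 0.0215), against 5.14% of all genes. EDNRB (ENSDARG00000089334), an endothelin receptor, had 217 to 354 fpm in dgat1a tumours, against 193 to 310 fpm in egfp tumours. The second Kit receptor gene, kitb, stayed under 1 fpm on average and was not tested.

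Genes of the melanosome, many of them known targets of MITF, mostly had values on the other side of 0 from mitfa. Of 18 tested, 17 had a log2 fold change above 0, against 53.6% of all tested genes, with a median of 0.69. At an unadjusted limma p under 0.05 stood 7 higher and 0 lower, against 6.83% and 8.18% of all genes. DESeq2 called 1 of the 18, pmela, against 5.14% of all genes. That gene, which encodes the protein of melanosome fibrils, had 9225, 13275, 1398, 3843 and 5508 fpm in dgat1a replicates 1 to 5, against 1433, 2373 and 1989 fpm in egfp replicates 1 to 3. In dgat1a replicate 3 it was lower than in any egfp tumour, and the log2 difference was 1.445 (standard error 0.63, limma adjusted p = 0.328, DESeq2 adjusted p = 0.0455). The TYRP1 copy ENSDARG00000056151, an enzyme of melanin synthesis, likewise had its lowest value in dgat1a replicate 3, at 84.5 fpm. Its other dgat1a tumours had 889 to 2743 fpm, against 260 to 1957 fpm in egfp tumours. The channel gene trpm1b had 901 to 1909 fpm in dgat1a tumours, against 862 to 1897 fpm in egfp tumours. Groups did not overlap for 2 of the 18 genes, MLPH and RAB27A, which both serve melanosome transport and were both higher in dgat1a tumours. Over all tested genes the share was 10.4% in either direction and 4.46% with dgat1a higher.

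The mean log2 level of the 18 melanosome genes was compared with each lineage gene over the 8 tumours, a comparison added after the data were seen. With kita, r was 0.765 (exact permutation p = 0.0168, adjusted 0.0503 over 3 relations) and rho was 0.81 (exact permutation p = 0.0218, adjusted 0.0653). Without dgat1a replicate 5 and egfp replicate 3, the same 2 tumours for kita as for sox10, r with kita was 0.801, and with group means removed it was 0.548. With mitfa, r was -0.442 (exact permutation p = 0.264, adjusted 0.396) and rho was -0.595 (exact permutation p = 0.132, adjusted 0.198). Without dgat1a replicate 2 and egfp replicate 2, the tumours farthest from the median of mitfa, r with mitfa was 0.0313. With group means removed it was 0.17, so the negative value did not hold within the groups. With sox10, r was 0.224 (exact permutation p = 0.59, adjusted 0.59) and rho was 0.262 (exact permutation p = 0.536, adjusted 0.536), and r was -0.0389 without the outer tumours. None of the 3 relations passed the adjusted threshold.

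**Figure D4:**
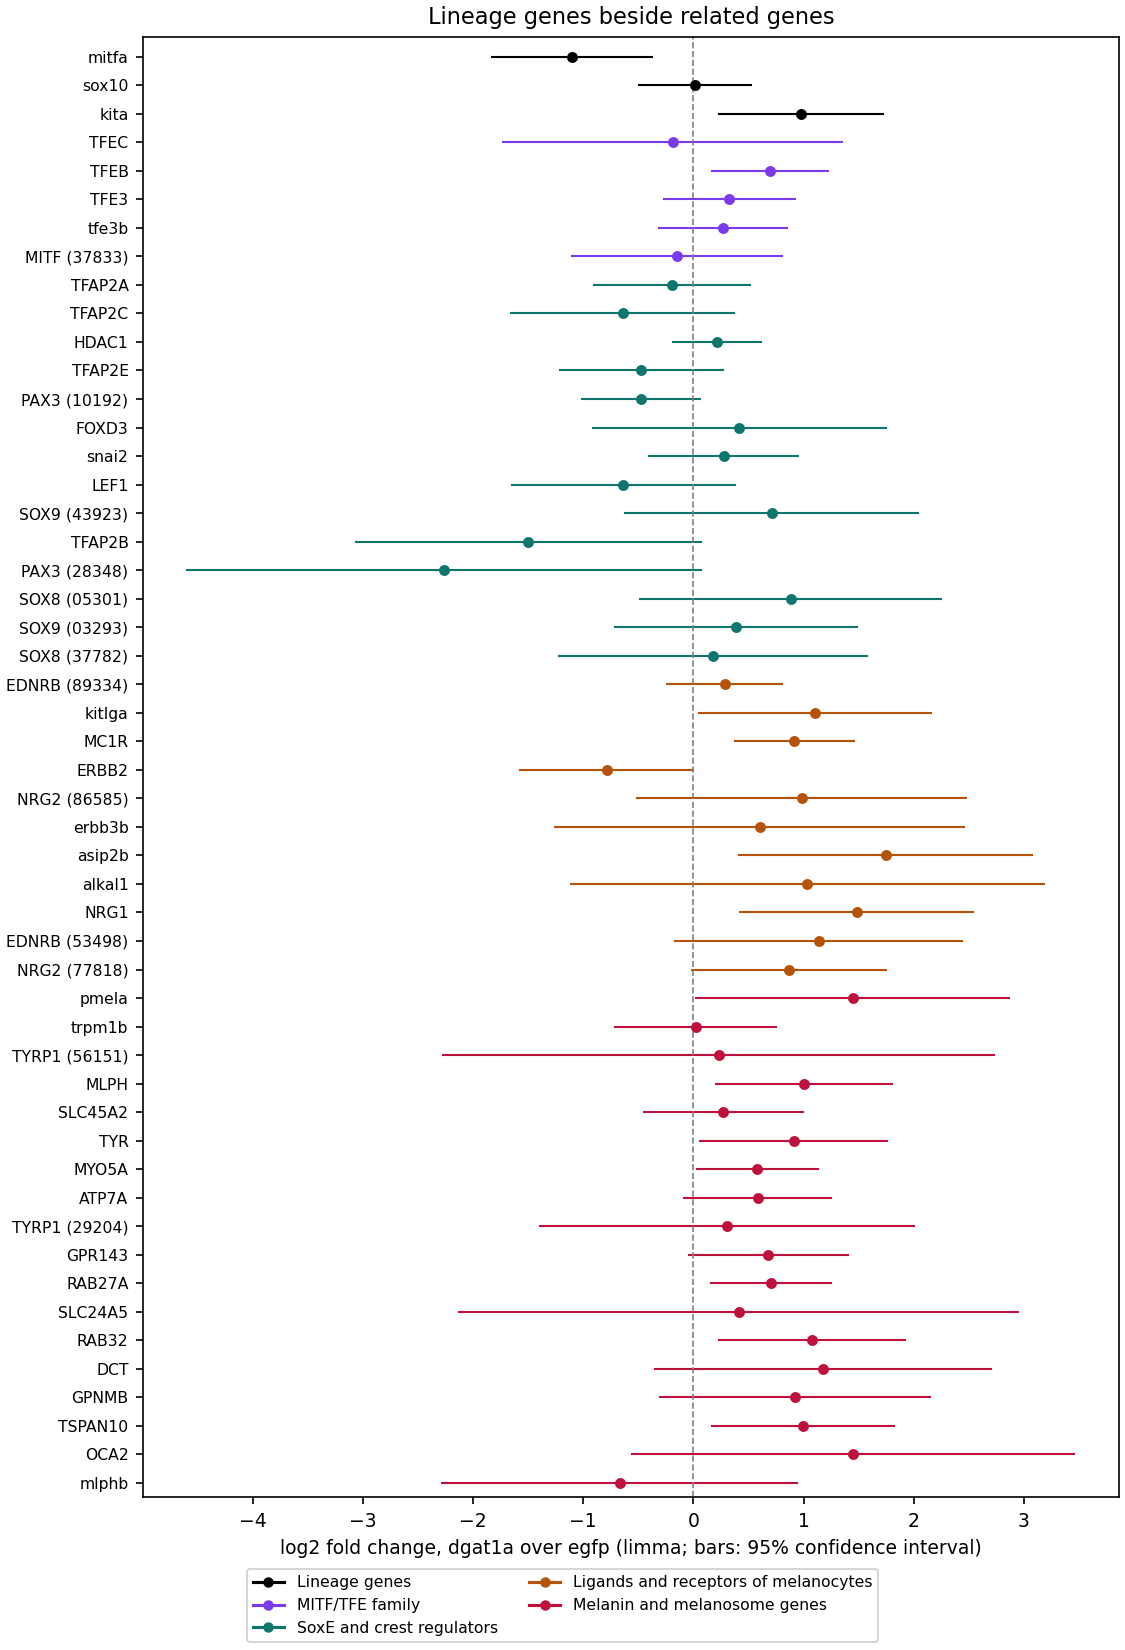
Log2 fold change of dgat1a over egfp tumours from limma (horizontal; points, with bars for the 95% confidence interval) for the 3 lineage genes and the tested genes of 4 lists, coloured by list and ordered by mean level within it. Digits in brackets are the last 5 of the gene ID where a symbol is shared. Most melanosome genes and ligands or receptors lie right of 0 (17 of 18 and 10 of 11), mitfa lies left of it at -1.10, and the crest regulators lie on both sides.

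Crest markers used in zebrafish melanoma showed single strong differences without a shared direction, with 6 of 12 tested genes above 0 and a median log2 fold change of 0.10, or -0.24 without egfp replicate 1. DESeq2 called 3 of the 12, against 5.14% of all genes: MIA and S100B, higher in dgat1a tumours, and the SOX11 copy ENSDARG00000095743, lower. S100B had 0 to 62.3 fpm in dgat1a tumours, against 0.0440 to 0.926 fpm in egfp tumours, and the groups overlapped (DESeq2 adjusted p = 0.0236, limma adjusted p = 0.25). SOX11 had 3.09 to 6.90 fpm in dgat1a tumours, against 8.33 to 40.9 fpm in egfp tumours (DESeq2 adjusted p = 0.00617, limma adjusted p = 0.215). MIA, a secreted protein of melanoma cells, had 370, 197, 383, 255 and 224 fpm in dgat1a replicates 1 to 5, against 17.8, 87.8 and 137 fpm in egfp replicates 1 to 3 (log2 fold change 2.19, standard error 0.57, limma adjusted p = 0.201). Without egfp replicate 1 its log2 fold change was 1.33. The crest gene crestin had 1159 fpm in dgat1a replicate 3, against 2.33 to 25.3 fpm in the other dgat1a tumours and 23.2 to 73.7 fpm in egfp tumours. That tumour was unremarkable for sox10, at 974 fpm.

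Since sox10 and kita are also used by other cells, markers of those cells were measured beside them. Of the glial list 10 of 16 genes were tested, with a median log2 fold change of 0.01 and 5 above 0. Its summed level was 305 to 551 fpm in dgat1a tumours, against 625 to 783 fpm in egfp tumours. Much of that sum came from SOX2 and FOXD3, with means of 194 and 145 fpm, and FOXD3 also stands among the crest regulators. No sum without them was computed, so the separate ranges are not a measure of glial cells. SOX2, the member with the highest mean, had 87.9 to 187 fpm in dgat1a tumours, against 155 to 356 fpm in egfp tumours. The myelin gene plp1b had 287 fpm in egfp replicate 2 and 91.1 fpm in dgat1a replicate 4, against 7.91 fpm or less in the other 6 tumours. The oligodendrocyte gene OLIG2 and both GJB1 copies had means under 1 fpm. Of 7 listed markers of lymphocytes and mast cells, 5 matched an ID and all 5 were tested. The other 2, cd3eb and cpa5, matched none, so the sum may not cover mast cells. The 5 summed to 47.2 to 118 fpm in dgat1a tumours and 19.9 to 166 fpm in egfp tumours. Most of the sum was GATA2, at 25.9 to 101 fpm in dgat1a tumours and 10.2 to 147 fpm in egfp tumours. All 5 tested genes had log2 fold changes above 0, as kita did, with a median of 0.90, against 53.6% of all tested genes. At an unadjusted limma p under 0.05, cd4-1 and ZAP70 were higher, against 6.83% of all genes. The 4 other than GATA2 lay between 0.82 and 0.99. Without egfp replicate 1, 4 of 5 were above 0 and the median was 0.63. The part of these cells in the kita difference was not tested.

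Sister pigment cells also derive from sox10-positive crest. Xanthophore markers summed to 287 to 696 fpm in dgat1a tumours and 173 to 509 fpm in egfp tumours. Of 8 tested genes 7 had a log2 fold change above 0, against 53.6% of all tested genes. The median was 0.32, or 0.62 without egfp replicate 1. Iridophore markers summed to 659 to 2900 fpm in dgat1a tumours and 477 to 1375 fpm in egfp tumours. Here 7 of 9 log2 fold changes lay above 0, against the same 53.6%, with a median of 0.19, or 0.53 without egfp replicate 1. Dgat1a replicate 3, with the lowest melanosome sum of 5052 fpm, had the highest iridophore sum. By mean log2 level of the melanosome genes it was not lowest, at 6.38, against 6.35 and 6.27 in egfp replicates 2 and 3. Its iridophore sum came largely from PAICS at 843 fpm, ALX4 (ENSDARG00000088332) at 839 fpm and GMPS at 406 fpm. In egfp replicate 1 PAICS had 806 fpm.

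Among markers of surrounding tissue, those of muscle, keratinocytes and fibroblasts varied widely, as did the erythroid markers described below. Skeletal muscle markers, 7 of 7 tested, summed to 645, 138 and 165 fpm in dgat1a replicates 1, 3 and 5, to 3.796 and 2.59 fpm in dgat1a replicates 2 and 4, and to 1.04 to 14.0 fpm in egfp tumours. Dgat1a replicates 2 and 4, with little muscle RNA, had mitfa at 685 and 1192 fpm and kita at 860 and 518 fpm. DESeq2 called 3 of the 7 muscle genes, ckma, ckmb and atp2a1, against 5.14% of all genes. All 7 had log2 fold changes above 0 (median 2.87), against 53.6% of all tested genes. Keratinocyte markers, 7 of 7 tested, summed to 1347 to 4718 fpm in dgat1a tumours and to 399, 4817 and 2269 fpm in egfp replicates 1 to 3. Fibroblast markers, 8 of 8 tested, summed to 860 to 2140 fpm in dgat1a tumours and to 226, 2166 and 1285 fpm in egfp replicates 1 to 3. Egfp replicate 1 thus had the lowest keratinocyte and fibroblast sums. The keratinocyte gene cdh1 went the other way, at 361 fpm in egfp replicate 1, against 253 and 61.7 fpm in egfp replicates 2 and 3. In dgat1a tumours cdh1 had 170 to 423 fpm. The median log2 fold change of the keratinocyte genes was 1.30 with that tumour and -0.25 without it, and that of the fibroblast genes was 1.39 with it and 0.11 without it. Without it the log2 fold changes were -1.18 for mitfa, 0.14 for sox10 and 1.14 for kita (limma adjusted p = 0.499, 0.899 and 0.507), so the differences of mitfa and kita were as large as with it. In that fit 0 of the 3 passed, against 0.0297% of all genes.

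Erythroid markers, 4 of 4 tested, summed to 60.5 to 324 fpm in dgat1a tumours and 226 to 711 fpm in egfp tumours. All 4 had log2 fold changes below 0, whereas 53.6% of all tested genes lay above 0. Their median was -1.06, or -0.61 without egfp replicate 1. Macrophage and neutrophil markers, 6 of 7 tested, summed to 663 to 1238 fpm in dgat1a tumours and 686 to 871 fpm in egfp tumours. Of the 10 listed symbols 3, mpeg1.1, mfap4.1 and mpx, matched no ID, so the sum may cover these cells only in part. Its highest member was cd74a, with a mean of 494 fpm. The neutrophil gene lyz averaged under 1 fpm and was not tested. It had 0.146 to 1.49 fpm in dgat1a tumours, against 0 to 0.0441 fpm in egfp tumours, with the 0 in egfp replicate 1. Endothelial markers, 4 of 4 tested, summed to 71.8 to 119 fpm in dgat1a tumours and 64.1 to 127 fpm in egfp tumours. The part of these cells in the lineage genes' levels was not tested.

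**Figure D5:**
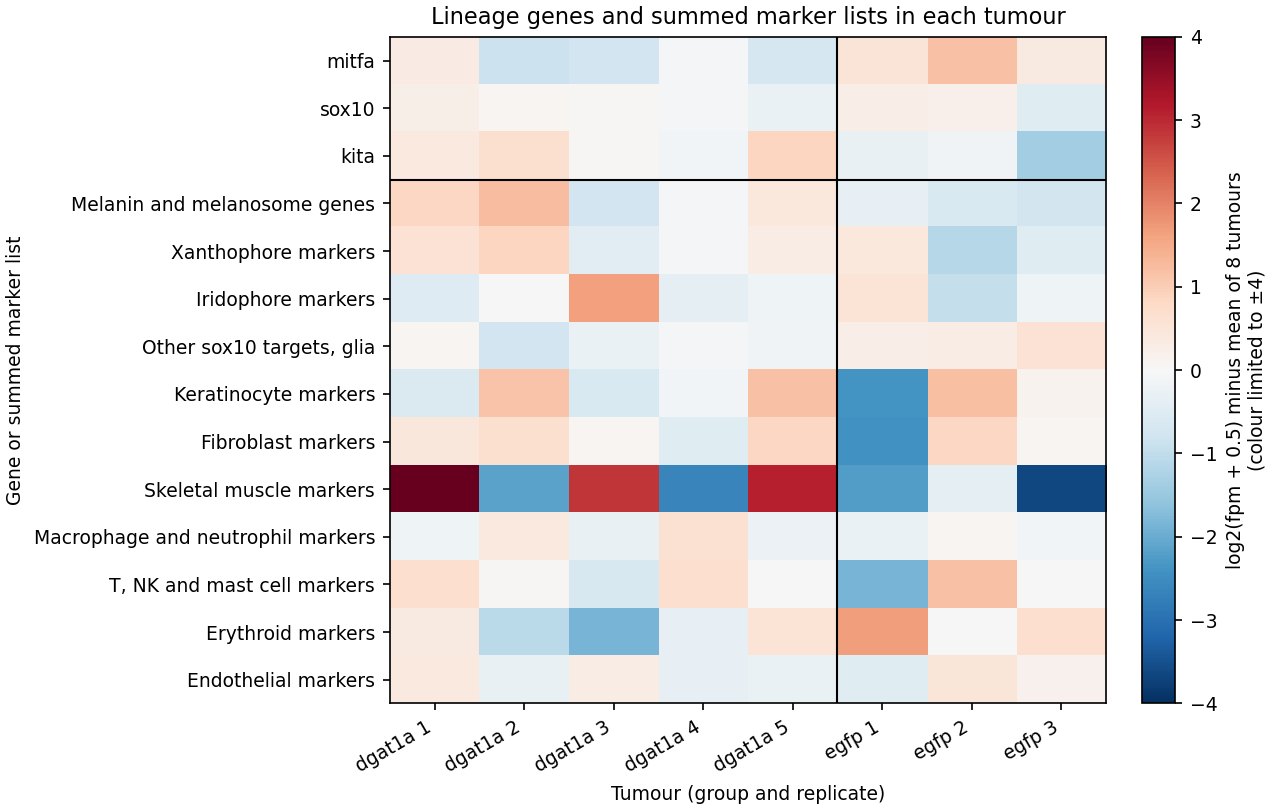
Log2(fpm + 0.5) of mitfa, sox10 and kita and of 11 summed marker lists (rows) in the 8 tumours (columns, dgat1a left of egfp), each minus its mean over the tumours, with colour limited to ±4. The lineage genes vary less than the muscle, keratinocyte and fibroblast sums, of which the last 2 are lowest in egfp replicate 1 (399 and 226 fpm).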

How the data were processed

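RNA sequencing libraries of 8 melanomas, 5 dgat1a and 3 egfp, were grouped by sample title. The submitters' processing notes name STAR 2.5.3, featureCounts 1.6.2, DESeq2 1.14.1 and build GRCz11, without roles. Strandedness and gene filters are not given in the sources used here, so sharing of reads between overlapping or near-identical genes is unknown. The authors deposited a per-million signal (fpm), a variance-stabilised version of it that is close to log2, and a table of their comparison. Per the file headers that table holds a mean signal, a log2 fold change and its error, a score that divides one by the other, and a p-value with its adjusted p-value.

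Every fpm column was 100% whole multiples of the value of 1 read (tolerance 0.01), so reads were recovered. A value of 3 reads was 0.109 to 0.138 fpm. The fpm columns summed to 907747 to 1053608. Libraries were checked for duplicates: the smallest chi-square per degree of freedom of any pair was 79.3, far above the 1 that sampling noise gives, and all 8 were kept.

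Genes averaging 1 fpm or more (16853) were tested on log2(fpm + 0.5) with limma 3.58.1 in R 4.3.3 (intensity trend, transgene as the 1 factor, two-sided, Benjamini-Hochberg adjustment, threshold 0.05). The edgeR 4.0.16 quasi-likelihood test and DESeq2 1.42.0 on recovered reads were alternatives. Single values were tested by exact permutation over samples. Simulated data with known changes served as a check that the limma, edgeR and DESeq2 fits ran properly. The planted changes were larger than the differences of mitfa and kita, so the check does not show how well differences of that size are found. Of the 22416 IDs, 21017 matched a symbol in the name table, and 15 of 158 listed symbols matched none. A listed symbol was matched as written, in capitals, or without its final a or b.

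The named genes were the 3 lineage genes, list genes past the threshold or otherwise up to 3 with the highest mean in each list, the 5 nearest patterns per lineage gene, and DGAT1. Other list genes were singled out after their values were seen: the second MITF ID, both PAX3 copies, kitb, csf1rb, S100B, SOX11, MLPH, RAB27A, OLIG2, GJB1 and lyz. So were asip2b, NRG1, alkal1, cdh1 and the EDNRB and NRG2 IDs of low level. The lineage genes, the lists and the tests were chosen with earlier results of these data known.

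Replicate numbers 1 to 3 occur in both groups, and no label says that they mark a shared litter or day. The alternatives were other pseudocounts, filters, scalings and tests, the replicate block, and leaving out each tumour.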

Additional observations from a re-analysis of the deposited data

Results flagged for a closer look

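In 51 sets of values, each over the 5 dgat1a tumours, a single tumour far from the rest was looked for by the gap to its neighbour relative to the range. Chance flags about 1 in 20 such sets if the values are normally distributed, which was not checked for fpm. Of the sets 7 were flagged, each for a high value, and this count was not tested against chance. None concerned mitfa, sox10, kita or the ratios of mitfa and kita to sox10. Dgat1a replicate 3 stood apart in 3 genes: crestin at 1159 fpm (the other 4 tumours 2.33 to 25.3), ALX4 (ENSDARG00000088332) at 839 fpm (58.6 to 171) and PDGFRB at 178.8 fpm (47.9 to 82.2). Dgat1a replicate 1 stood apart in the muscle gene atp2a1 at 138.5 fpm (0.328 to 29.2) and the erythroid gene alas2 at 46.6 fpm (4.88 to 15.2). Dgat1a replicate 2 stood apart in TFAP2C at 1527 fpm (427 to 641). Dgat1a replicate 4 stood apart in the myelin gene plp1b at 91.1 fpm (1.04 to 7.91).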

How the results depend on the processing

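The log2 fold changes of mitfa and kita kept their sign and stayed short of the threshold in all 20 alternatives each. They ranged from -1.29 to -0.86 for mitfa and from 0.58 to 1.204 for kita, and adjusted p-values over limma, edgeR and DESeq2 of 0.0546 to 0.499 and 0.105 to 0.507. For sox10 the value lay near 0 and changed sign in 5 of 20: it was -0.017 with edgeR and -0.0091 with DESeq2, and leaving out each tumour gave -0.23 to 0.14.

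The number of genes called was 9 with limma, 3 with edgeR, 866 with DESeq2 (391 higher, 475 lower), 4 with dgat1a tumours 1 to 3 only, and 5 to 55 when a tumour was left out. The extremes were 55 without egfp replicate 2 and 5 when egfp replicate 1 was dropped, for reasons not tested.

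Deviations of tumours with the same number correlated at 0.24, 0.073 and 0.0071. Tumours with different numbers were not compared in this way, so these values cannot decide whether the numbers mark pairs. No label gives them as pairs, and the main test did not use them as such. With the replicate block, fitted to the 6 tumours numbered 1 to 3, limma called 0 genes (2080 at an unadjusted p under 0.05), and the log2 fold changes were -1.13 for mitfa, 0.13 for sox10 and 0.97 for kita. With the block the ratio differences were -1.26 (mitfa to sox10) and 0.84 (kita to sox10), each with an exact permutation p of 0.25, the smallest that 3 pairs allow. Without the block the same 6 tumours gave -1.26 and 0.84, each p 0.1 by exact permutation, the smallest that design allows.

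The ratio differences ranged from -1.33 to -0.98 and from 0.77 to 1.08 when each tumour was left out, with adjusted exact permutation p-values of 0.0286 to 0.0952, where few splits remain. The mitfa and sox10 correlation was -0.0955 after quantile normalization and 0.0665 to 0.636 when a tumour was left out. The mitfa and kita correlation was 0.119 with group means removed and -0.634 to -0.42 when a tumour was left out. The sox10 and kita correlation was -0.582 to 0.757 when a tumour was left out, the lowest without egfp replicate 3.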

Other observations

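In dgat1a tumours the transgene's ID, ENSDARG00000103503 (DGAT1), stood beside mitfa, whose promoter drives it. It measured 4160, 3002, 2623, 2223 and 3069 fpm in dgat1a replicates 1 to 5, where mitfa measured 1565, 685, 733, 1192 and 793 fpm. The tumour with the most mitfa, replicate 1, also had the most DGAT1, but replicate 4, second for mitfa, had the least. With 5 tumours no correlation was computed. The second DGAT1 copy, ENSDARG00000054914, had 4.43 ± 1.26 fpm (SD, n = 5) in dgat1a tumours and 4.57 ± 0.933 fpm (SD, n = 3) in egfp tumours.

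Among receptor kinases related to kita, limma called 0 of 5, against 0.0534% of all tested genes. Of these, 4 had a log2 fold change above 0, against 53.6% of all tested genes, with a median of 0.46, and the other, csf1rb, was at -0.62. PDGFRB, a receptor of pericytes and fibroblasts, had 47.9 to 179 fpm in dgat1a tumours, against 23.5 to 63.9 fpm in egfp tumours (log2 fold change 0.85, standard error 0.48, limma adjusted p = 0.42). The receptor csf1ra, used by xanthophores and macrophages, had 50.7 to 87.0 fpm in dgat1a tumours, against 43.2 to 57.6 fpm in egfp tumours (log2 fold change 0.46, standard error 0.23, limma adjusted p = 0.37). The largest log2 fold change of the list was that of PDGFRA, at 1.39 (standard error 0.57, limma adjusted p = 0.302). PDGFRA had 3.91 to 20.9 fpm in dgat1a tumours, against 2.03 to 6.96 fpm in egfp tumours.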
